A study of Mus musculus with 2 samples.

Results

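The genes described here are 10 regulators of cell cycle arrest and cellular senescence other than p21: Cdkn2a, Cdkn2b, Cdkn2c, Cdkn1b, Cdkn1c, Trp53, Rb1, Lmnb1, Hmgb1 and Ccnd1. They were taken from a named list, and all 10 were found by symbol among the 32285 genes measured. The retinal pigment epithelium (RPE), the pigmented sheet that supports the photoreceptors, was studied by 5′ single-cell RNA-seq of RPE/choroid/sclera tissue. The eyes came from male C57BL/6J mice aged 3 months that had received 1 µl under the retina 7 days before, either PBS (Control) or doxorubicin at 100 ng/µl (Dox), a DNA-damaging agent. Each condition was 1 library made from the 10 eyes of 5 mice, so Dox, injection and library cannot be told apart, and no test between conditions was possible. A subretinal bleb covers part of the RPE, and the libraries hold the RPE of the whole eye.

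RPE cells were those with at least 10 unique molecular identifiers (UMIs, each standing for 1 captured RNA molecule) of Rpe65, the visual cycle isomerohydrolase. These were 1526 Control and 1630 Dox cells, of 20180 and 15426 cells kept. RPE cells were also split at 1000 CPM (UMIs of a gene per 1000000 UMIs) of Serpina3n, an acute-phase protease inhibitor: 15 Control RPE cells (0.983%) and 208 Dox RPE cells (12.8%) were Serpina3n-high. The 8 RPE markers summed to 97246 CPM in Control RPE and 98291 CPM in Dox RPE, and 87.2% and 86.4% of these cells lay in the RPE-like cluster. The 2 libraries shared 441 barcodes, 3 of them between RPE cells. Levels are CPM of the UMIs summed over the cells of a group, with an exact Poisson 95% interval in brackets, and differences are log2 ratios of CPM with an exact 95% interval. Both intervals cover counting error only, since cells of 1 library are no replicates, and levels are compared within a gene, not between genes.

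Cells leave the cycle through a small set of brakes. The INK4 proteins include p16Ink4a from Cdkn2a, p15Ink4b from Cdkn2b and p18Ink4c from Cdkn2c. They bind the kinases CDK4 and CDK6, the partners of cyclin D1 (Ccnd1). The CIP/KIP proteins (p21 from Cdkn1a, p27 from Cdkn1b, p57 from Cdkn1c) bind cyclin and kinase complexes more widely. Both keep the retinoblastoma protein (Rb1) bound to E2F factors, and p53 (Trp53) drives p21 after DNA damage. Loss of lamin B1 (Lmnb1) and release of the chromatin protein HMGB1 (Hmgb1) are widely used marks of senescent cells, while the adult RPE is itself a tissue that no longer divides.

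In RPE cells as a whole, most of the 10 regulators differed little between Control and Dox, and Cdkn2a had too few UMIs to be read. Cdkn1a stood at 47.7 CPM in Control RPE and at 113 CPM in Dox RPE (log2 1.25, 1.16 to 1.34). Of the 9 members with at least 50 UMIs over both groups, 1 was past 1.5-fold, Cdkn2c, against 6.58% of all 12774 genes with that many UMIs. The median log2 ratio of the 9 members was 0.01, beside -0.01 for all genes. In Serpina3n-low RPE cells 0 of 9 members were past 1.5-fold, with 4.91% of all genes past it, and the members' median was 0.04 beside 0.01. Counts of 0 or 1 of 9 are near these backgrounds, and no p-value can be given with 1 library a condition.

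Within the Dox library, Serpina3n-high and Serpina3n-low RPE cells differed more. Both groups share the library and its eyes. The bleb covers part of the RPE, so their exposure to Dox may differ, and it was not measured. Past 1.5-fold were 3 of 8 members, with 25.0% of all genes past it (20.3% lower and 4.72% higher): Lmnb1 and Cdkn1c were lower and Cdkn2b was higher in Serpina3n-high cells. The median over the 8 members was -0.41, and over all genes -0.18, so that the whole scale was shifted towards lower values in Serpina3n-high cells. The same limit holds in Control, where the Serpina3n-low group held 25861079 UMIs and the Serpina3n-high group 452790. There 3 of 8 members were past 1.5-fold (41.0% of all genes), with 15 cells in the Serpina3n-high group. The median score for mixed cells (Scrublet doublet score) was 0.310 in these, 0.128 in Serpina3n-low Control and 0.136 in Serpina3n-high Dox cells. Among the highest scores of their library were 26.7%, 21.8% and 2.88% of these groups. Scores were computed within each library, so the medians of Control and Dox cells are not on 1 scale. The part of mixed cells in the values of the Control Serpina3n-high group was not tested further. Between the libraries, Serpina3n-high RPE cells had 2 of 5 members past 1.5-fold (27.4% of all genes), Ccnd1 higher and Cdkn1c lower in Dox. The split used Serpina3n alone, but Serpina3n-high cells were also deeper (median 28244 UMIs in Dox, against 16608 in Serpina3n-low cells) and poorer in Rpe65 (1954 against 5499 CPM), and the part of these differences in the results was not tested.

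**Figure D1:**
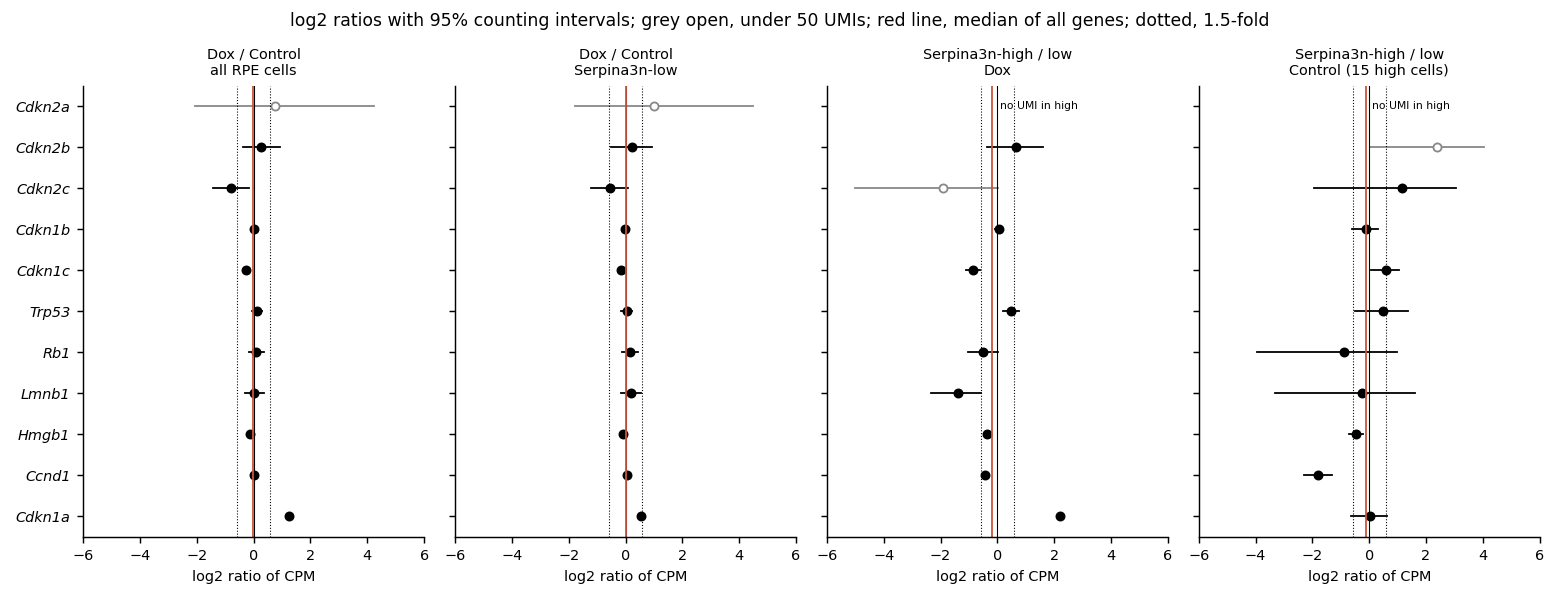
log2 ratios of CPM (x axis) of the 10 regulators and of Cdkn1a (rows) in 4 comparisons of RPE cells (panels), with exact 95% counting intervals; grey open points had under 50 UMIs, the red line is the median of all genes and dotted lines are 1.5-fold. Cdkn1a lies at 1.25 in the first panel and 2.20 in the third, while all members with 50 UMIs but Cdkn2c stay inside the dotted lines in the first panel.

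The INK4 genes among the members, Cdkn2a, Cdkn2b and Cdkn2c, were scarcely detected in RPE cells. Cdkn2d, an INK4 gene outside the members, was at 26.1 CPM in Control RPE and 20.4 CPM in Dox RPE (log2 -0.35, -0.51 to -0.19). Cdkn2a and Cdkn2b are neighbours on the minus strand of chromosome 4 (GRCm38, 89274471 to 89294653 and 89306299 to 89311039). Cdkn2a has separate starts for p19Arf and p16Ink4a, whose first exons are joined to shared downstream exons, and the deposited gene-level count adds both transcripts. The 3 start regions are shown because transcription of these genes begins beside them, and because the count cannot say which Cdkn2a start was used. Each is the first 216 bases of the RefSeq promoter entry (GRCm38.p6), 5′ to 3′ on the minus strand and outside annotated exons, with capitals for the E2F motif TTTNNCGC and the GC box GGGCGG, searched on both strands.
Cdkn2b (chr4:89311067-89311282): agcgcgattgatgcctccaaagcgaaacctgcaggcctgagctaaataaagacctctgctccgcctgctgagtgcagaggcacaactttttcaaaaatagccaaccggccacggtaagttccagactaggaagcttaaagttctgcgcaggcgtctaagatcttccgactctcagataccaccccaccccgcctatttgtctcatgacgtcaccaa
Cdkn2a p19Arf start (chr4:89294654-89294869): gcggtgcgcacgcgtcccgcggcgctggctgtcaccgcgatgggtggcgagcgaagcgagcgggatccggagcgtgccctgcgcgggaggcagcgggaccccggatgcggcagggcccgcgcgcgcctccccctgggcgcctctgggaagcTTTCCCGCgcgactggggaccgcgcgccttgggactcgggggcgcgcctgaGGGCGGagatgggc
Cdkn2a p16Ink4a start (chr4:89282227-89282442): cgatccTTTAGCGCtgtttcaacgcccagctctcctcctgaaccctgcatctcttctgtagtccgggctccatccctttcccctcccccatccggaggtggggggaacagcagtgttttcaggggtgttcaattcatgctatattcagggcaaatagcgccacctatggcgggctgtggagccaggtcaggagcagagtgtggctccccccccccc
The p19Arf window held 1 E2F motif and 1 GC box, the p16Ink4a window 1 E2F motif and the Cdkn2b window neither. In the same order, the RefSeq start sites are at 89294619, 89282192 and 89311032. The windows end upstream of these sites, and the bases between were not searched. Windows of the same length held the E2F motif in 3.57% and the GC box in 27.9% of 32851 promoters. GC content was 78.7% in the p19Arf window, 59.7% in the p16Ink4a window and 51.9% in the Cdkn2b window, beside a median of 51.9% over all windows. A motif match is a description of the letters and not a site in use.

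Cdkn2a gave 2 UMIs in 2 of 1526 Control RPE cells and 4 UMIs, all in 1 of 1630 Dox RPE cells. This is 0.076 CPM (0.0092 to 0.275) in Control and 0.128 CPM (0.0349 to 0.328) in Dox, and the groups overlap. None of the 208 Serpina3n-high Dox RPE cells had a Cdkn2a UMI in 5566224 UMIs, a count of 0 that allows up to 0.539 CPM (3 UMIs). A Cdkn2a level below that limit was not detectable in Serpina3n-high cells at this depth. After each cell of at least 5000 UMIs was thinned to that number, 0 of 1340 Control and 0 of 1428 Dox RPE cells had a UMI. Of NK or T-like cells 2 of 133 and 1 of 91 had one. Thinning left out cells with fewer UMIs, in Control 325 of 458 NK or T-like and 186 of 1526 RPE cells. Thinned shares of different cell types thus also differ in which cells remain. The highest level among the Control cell groups was in NK or T-like cells, 3.82 CPM (1.65 to 7.53) from 8 UMIs, and 5 of the groups outside the RPE had no UMI. Control Myoc-led fibroblast-like cells gave 40 UMIs in 15 of 11168 cells, a share of 0.134% beside 0.131% of Control RPE cells. In Dox the same fibroblast-like cluster gave 7 UMIs in 4 of 8328 cells, 0.144 CPM against 0.676 CPM in Control.

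Cdkn2b was at 1.37 CPM (0.958 to 1.89) in Control RPE and 1.63 CPM (1.22 to 2.15) in Dox RPE, from 36 and 51 UMIs. Serpina3n-high Dox cells had 2.34 CPM from 13 UMIs and Serpina3n-low Dox cells 1.48 CPM from 38 UMIs, a log2 ratio of 0.66 whose interval (-0.38 to 1.60) includes 0. In Myoc-led fibroblast-like cells Cdkn2b was at 2.91 CPM in Control against 1.59 CPM in Dox (log2 -0.88, -1.28 to -0.48). It was the 1 of 9 members past 1.5-fold there, where 4.58% of all genes were past it. A UMI lay in 78 of 11168 Control and 54 of 8328 Dox cells of that cluster (0.698% and 0.648%). The interval does not cover UMIs gathered in few cells. The share of RPE cells with a Cdkn2b UMI was 1.90% in Control and 2.76% in Dox at median depths of 16014 and 18116 UMIs. Thinned to 5000 UMIs the shares were 0.522% and 0.630%, against 0.726% and 0.628% of Myoc-led fibroblast-like cells, so that they do not stand above the level in another cell type.

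Cdkn2c (chromosome 4, 109660876 to 109667189, minus strand) was the member past 1.5-fold between the libraries. It was at 2.05 CPM (1.54 to 2.68) in Control RPE and 1.19 CPM (0.835 to 1.63) in Dox RPE, from 54 and 37 UMIs (log2 -0.79, -1.44 to -0.16). The intervals of both levels overlap, and with cells thinned to 5000 UMIs the log2 ratio was -0.09. In Serpina3n-low cells it was 2.01 CPM in Control against 1.37 CPM in Dox (log2 -0.56, -1.22 to 0.09), and the 208 Serpina3n-high Dox cells held 2 UMIs. RPE cells had the lowest Cdkn2c level of all cell groups in both libraries. Schwann-like cells had the highest, 82.6 CPM (48.1 to 132) in Control and 96.2 CPM (48.0 to 172) in Dox, from 17 and 11 UMIs. Next was the Hbb-bs-led cluster, in which the melanocyte gene Pmel is also among the leading genes, at 34.0 and 27.1 CPM. In this cluster all 9 melanocyte markers reached 10 CPM and summed to 33183 CPM, while its red blood cell markers summed to 710 CPM. By library its melanocyte markers summed to 39997 CPM in Control and 26266 CPM in Dox. Markers of other cell types were also lower in Dox RPE cells than in Control RPE cells. Melanocyte markers summed to 1849 against 2889 CPM, and fibroblast markers to 936 against 1570 CPM. The part of RNA from other cells in the Cdkn2c difference was not tested.

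The CIP/KIP genes beyond p21 gave enough UMIs in RPE cells to be read, and their patterns differed. Cdkn1b (chromosome 6, 134920401 to 134925513) was at 98.8 CPM (95.1 to 103) in Control RPE and 99.6 CPM (96.1 to 103) in Dox RPE, a log2 ratio of 0.01 (-0.06 to 0.09). It was at 99.0 CPM in Serpina3n-low Control, 90.5 CPM in Serpina3n-high Control, 98.8 CPM in Serpina3n-low Dox and 103 CPM in Serpina3n-high Dox cells. The 4 groups overlap, and within Dox the interval of the log2 ratio, -0.07 to 0.20, holds any difference to under 1.5-fold as far as counting error goes. Cdkn1b was also the member with the least contrast between RPE and the other cells, with 89.3 CPM in all other Control cells and 83.7 CPM in all other Dox cells. Among cell types it ranged in Control from 63.6 CPM in Dpt-led fibroblast-like cells to 164 CPM in NK or T-like cells.

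Cdkn1c (chromosome 7, 143458339 to 143461050, minus strand), the p57 gene, was at 52.1 CPM (49.4 to 55.0) in Control RPE and 42.9 CPM (40.6 to 45.2) in Dox RPE (log2 -0.28, -0.39 to -0.17). Within Dox it was at 46.6 CPM (44.0 to 49.3) in Serpina3n-low and 25.9 CPM (21.8 to 30.5) in Serpina3n-high cells (log2 -0.85, -1.11 to -0.60). Control Serpina3n-high cells had 77.3 CPM from 35 UMIs (53.8 to 108), so the Serpina3n-high groups of the 2 libraries do not overlap (log2 -1.58). This ratio ranged from -2.28 to -0.66 over the alternatives. The main site of this RNA was outside the RPE: Myoc-led fibroblast-like cells held 576 CPM in Control against 603 CPM in Dox, and Dpt-led fibroblast-like cells 534 and 899 CPM. Fibroblast markers moved with it over these RPE groups. The 12 fibroblast markers summed to 1570 CPM in Control RPE, 1059 CPM in Serpina3n-low Dox and 370 CPM in Serpina3n-high Dox cells, against 1670 CPM in Serpina3n-high Control cells, and Kera was at 0 in each. Per 1000 fibroblast-marker UMIs there were 33.2 Cdkn1c UMIs in Control RPE, 46.3 in its Serpina3n-high cells and 29.0 in Control Myoc-led fibroblast-like cells; in Dox there were 44.0 in Serpina3n-low RPE, 70.0 in Serpina3n-high RPE and 31.8 in Myoc-led fibroblast-like cells. In the RPE cells with fibroblast-marker CPM below the median, the log2 ratio of Cdkn1c between Dox and Control turned to 0.26 and that between Serpina3n-high and Serpina3n-low Dox cells was -0.37. The part of fibroblast RNA in these ratios was not tested further.

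**Figure D2:**
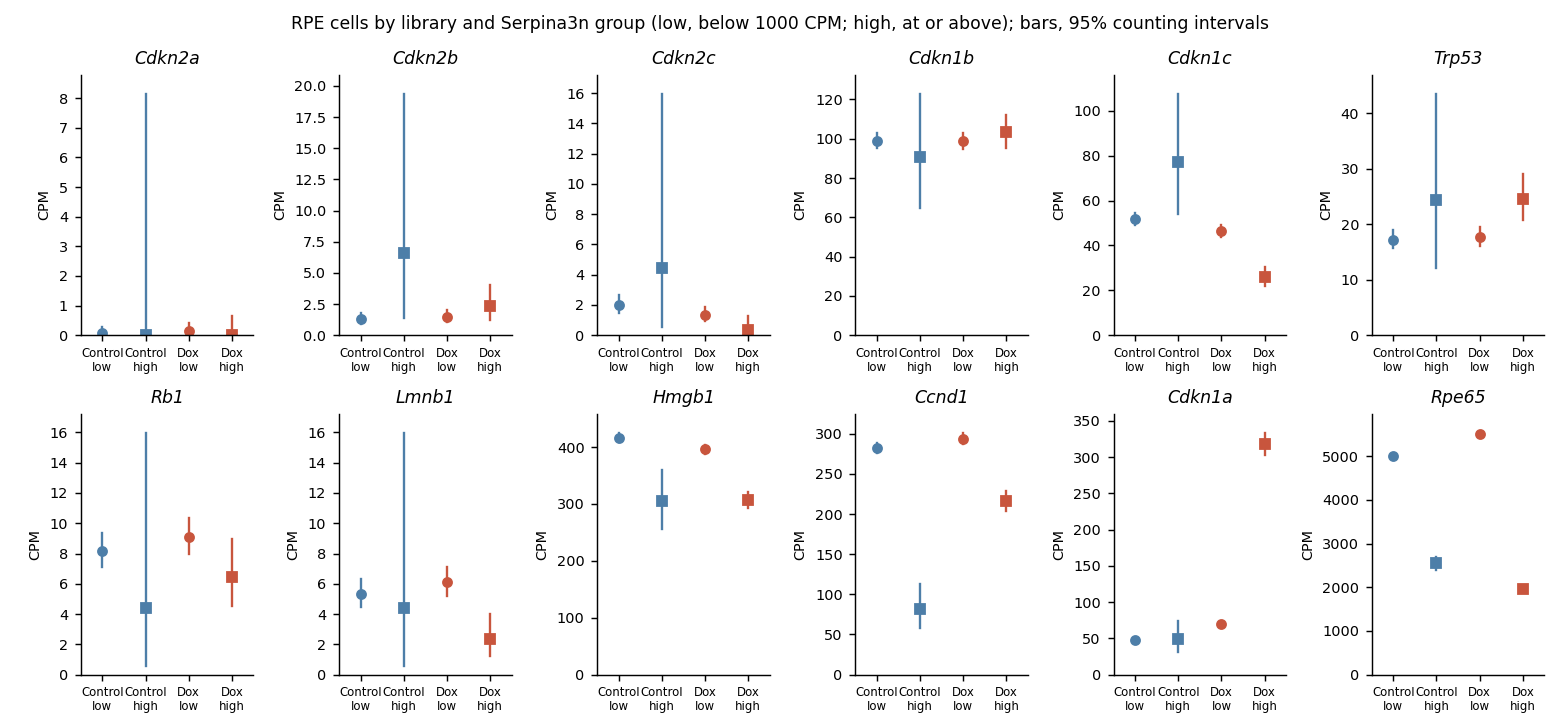
CPM (y axes from 0) of the 10 regulators, Cdkn1a and Rpe65 in RPE cells of Control (blue) and Dox (red), Serpina3n-low (circles) and Serpina3n-high (squares); bars are exact Poisson 95% counting intervals. Cdkn1a stands at 318 CPM in Serpina3n-high Dox cells and at 69.1 CPM or less in the other groups, Cdkn1c and Lmnb1 are lowest in Serpina3n-high Dox cells, and the Control Serpina3n-high group has wide bars because it holds 15 cells.

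Trp53 (chromosome 11, 69580359 to 69591873) was at 17.3 CPM in Control RPE, from 456 UMIs, and 18.9 CPM in Dox RPE, from 591 UMIs, overlapping levels with a log2 ratio of 0.13 (-0.05 to 0.31). Within Dox it was at 24.6 CPM (20.7 to 29.1) in Serpina3n-high and 17.7 CPM (16.1 to 19.4) in Serpina3n-low cells (log2 0.47, 0.19 to 0.75). With cells thinned to 5000 UMIs the log2 ratio was -0.04. With RPE cells taken at 3 Rpe65 UMIs it was -0.27, but most of those 4898 Dox cells lay outside the RPE-like cluster (1490 Dox cells). A Trp53 UMI was found in 42.8% of Serpina3n-high and 24.3% of Serpina3n-low Dox cells, but in 8.72% and 8.68% after thinning. RPE cells had the lowest Trp53 level of all cell groups. All other cells were at 55.6 CPM in both libraries, and NK or T-like cells were at 83.1 and 86.5 CPM. Of the p53 control list, Ccng1, a cyclin G gene that p53 induces, was at 41.3 CPM in Control RPE and 77.2 CPM in Dox RPE (log2 0.90, 0.80 to 1.01), and at 202 CPM in Serpina3n-high against 50.1 CPM in Serpina3n-low Dox cells (log2 2.01, 1.89 to 2.13).

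Of the 7 p53 control genes with 50 UMIs, 2 were higher by 1.5-fold and 0 lower between Dox and Control RPE, Ccng1 and Trp53inp1. Of all genes 1.66% were higher and 4.92% lower, and the list median was 0.09 beside -0.01 for all genes. Between Serpina3n-high and Serpina3n-low Dox cells 3 of 7 were higher and 1 lower, with 4.72% of all genes higher and 20.3% lower, and the list median was 0.46 beside -0.18. Mdm2, the ubiquitin ligase that p53 induces and that degrades it, gave 234 UMIs in Serpina3n-high cells and 631 UMIs (24.6 CPM) in Serpina3n-low cells (log2 0.77, 0.55 to 0.99). Trp53inp1 was at 11.7 against 4.64 CPM (log2 1.33, 0.87 to 1.78). Trp53bp1, the 53BP1 repair factor, was at 5.93 against 10.7 CPM (log2 -0.86, -1.42 to -0.33).

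Rb1 (chromosome 14, 73183673 to 73325822, minus strand) was at 8.09 CPM (7.04 to 9.26) in Control RPE and 8.62 CPM (7.62 to 9.72) in Dox RPE, a log2 ratio of 0.09 (-0.17 to 0.36). In Serpina3n-high Dox cells it was at 6.47 CPM from 36 UMIs and in Serpina3n-low Dox cells at 9.09 CPM from 233 UMIs (log2 -0.49, -1.04 to 0.02). The interval includes 0. Rb1 was higher in smooth muscle-like cells (31.9 CPM in Control, 32.6 CPM in Dox), endothelial-like cells (31.2 and 30.7 CPM) and the Snhg7os-led cluster (32.7 and 35.0 CPM) than in RPE cells, and these 3 groups overlap. Of the other pocket protein and E2F genes, 1 of 8 was past 1.5-fold between Dox and Control RPE, with 6.58% of all genes past it. This was E2f6, a repressive E2F, at 35.0 against 20.6 CPM (log2 0.77, 0.62 to 0.92). Between Serpina3n-high and Serpina3n-low Dox cells 1 of 8 was higher and 3 were lower, where 4.72% of all genes were higher and 20.3% lower, and the list median was -0.29 beside -0.18. E2f6 was at 88.6 against 23.4 CPM (log2 1.92, 1.75 to 2.09), the largest difference of any gene on the 7 pathway lists but Ccng1. E2f4 was at 23.4 against 39.9 CPM (log2 -0.77), E2f5 at 13.1 against 24.2 CPM (log2 -0.88) and E2f1 at 3.59 against 6.01 CPM (log2 -0.74).

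Lmnb1 was at 5.32 CPM (4.48 to 6.28) in Control RPE and 5.42 CPM (4.63 to 6.30) in Dox RPE, from 140 and 169 UMIs (log2 0.03, -0.31 to 0.36). Its summed level differed within the Dox library: 2.34 CPM (1.24 to 3.99) in Serpina3n-high cells, from 13 UMIs, and 6.09 CPM (5.17 to 7.12) in Serpina3n-low cells, from 156 UMIs. The log2 ratio was -1.38 (-2.32 to -0.57), and the intervals of the levels do not overlap. A UMI was found in 5.77% of Serpina3n-high and 9.85% of Serpina3n-low cells. After thinning to 5000 UMIs 4 of 195 Serpina3n-high cells (2.05%) and 35 of 1233 Serpina3n-low cells (2.84%) had a UMI, with intervals that overlap, and the log2 ratio was -0.51. Control Serpina3n-high cells held 2 Lmnb1 UMIs, too few to read the same contrast in Control. Lmnb1 was highest in macrophage or antigen-presenting-like cells, 163 CPM in both libraries. NK or T-like cells followed with 91.2 and 96.5 CPM. Markers of the former summed to 113 CPM in Serpina3n-high and 205 CPM in Serpina3n-low Dox RPE, and those of the latter to 0.180 and 4.41 CPM. Adgre1, and 9 of 10 NK or T markers, were at 0 in Serpina3n-high cells. Their part in the Lmnb1 difference was not tested.

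Of 10 other lamin and inner nuclear membrane genes, 0 were past 1.5-fold between Dox and Control RPE, with 6.58% of all genes past it (median log2 -0.11). Between Serpina3n-high and Serpina3n-low Dox cells 3 were lower and 0 higher, Lmnb2, Tmpo and Sun1, with 20.3% of all genes lower (median -0.35 beside -0.18). Tmpo, which encodes the lamina-associated polypeptides LAP2, was at 6.65 against 10.2 CPM (log2 -0.62, -1.15 to -0.11). Lmnb2, the other B-type lamin, was at 1.98 against 3.67 CPM (log2 -0.89, -1.94 to 0.01).

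Hmgb1 (chromosome 5, 149046702 to 149184489, minus strand) was at 415 CPM (407 to 422) in Control RPE and 380 CPM (373 to 387) in Dox RPE, a log2 ratio of -0.13 (-0.16 to -0.09). The levels do not overlap, but the difference is small against 1.5-fold. It was lower in Serpina3n-high cells of both libraries: 305 against 416 CPM in Control (log2 -0.45, -0.70 to -0.21) and 306 against 396 CPM in Dox (log2 -0.37, -0.44 to -0.30). Centred on the median of all genes, the Dox ratio was -0.19. After thinning, 75.9% of Serpina3n-high and 84.3% of Serpina3n-low Dox cells had an Hmgb1 UMI. The RNA level says nothing of release of the protein. Hmgb1 was lower in RPE cells than in all other cells, which were at 678 CPM in Control against 674 CPM in Dox. Hmgb1 has many processed pseudogenes, and how reads shared with them were counted is not given in the sources used here. Of 6 other HMG genes, 2 were lower and 0 higher between Serpina3n-high and Serpina3n-low Dox cells, with 20.3% of all genes lower and a list median of -0.12 beside -0.18. These were Hmgn3 at 68.8 against 123 CPM (log2 -0.83, -0.99 to -0.68) and Hmgb2 at 27.7 against 42.1 CPM (log2 -0.61, -0.86 to -0.36). Between Dox and Control RPE 0 of 6 were past 1.5-fold, with 6.58% of all genes past it (median -0.05).

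Ccnd1 (chromosome 7, 144929931 to 144939925, minus strand), the cyclin D1 gene, was the member whose level in RPE cells stood farthest above that of other cells. It was at 279 CPM (272 to 285) in Control RPE and 280 CPM (274 to 286) in Dox RPE, against 48.2 and 46.6 CPM in all other cells (log2 2.53, 2.48 to 2.59 in Control and 2.59, 2.53 to 2.65 in Dox). With cells thinned to 5000 UMIs, 67.9% of Control and 66.5% of Dox RPE cells had a Ccnd1 UMI, beside 11.3% and 11.1% of Myoc-led fibroblast-like cells and 11.3% and 12.1% of NK or T-like cells. Unthinned shares were 85.3% in RPE of both libraries, and 10.9% and 9.56% of NK or T-like cells had a UMI at median depths of 3714 and 3896 UMIs. Smooth muscle-like cells followed at 205 and 224 CPM, then Schwann-like cells at 199 and 175 CPM, which overlap them, and macrophage or antigen-presenting-like cells at 147 and 148 CPM. The Dox to Control log2 ratio in RPE was 0.01 (-0.04 to 0.05).

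Ccnd1 was lower in Serpina3n-high than in Serpina3n-low RPE cells of both libraries. In Dox it was at 216 CPM (204 to 228) against 294 CPM (288 to 301), a log2 ratio of -0.45 (-0.54 to -0.36). In Control it was at 81.7 CPM (57.5 to 113), from 37 UMIs in 15 cells, against 282 CPM (276 to 289), a log2 ratio of -1.79 (-2.29 to -1.32). Serpina3n-high cells of Dox thus had 216 CPM and those of Control 81.7 CPM (log2 1.40, 0.93 to 1.91). With RPE cells taken at 3 Rpe65 UMIs, which made 4898 Dox cells in all, the Dox ratio was 0.04. The RPE-like cluster held 1490 Dox cells, so most of those 4898 cells lay outside it. In the Hbb-bs-led cluster, which is rich in melanocyte markers, Ccnd1 gave 51.5 CPM in Control against 118 CPM in Dox (log2 1.20, 0.96 to 1.44). It was 1 of 2 members past 1.5-fold among 8 there, with 15.8% of all genes past it. The other was Rb1, at 11.7 and 17.6 CPM (log2 0.59, 0.01 to 1.15). In that cluster Rpe65 gave 545 CPM in Control against 1457 CPM in Dox, and RPE markers summed to 9921 and 29248 CPM. Their part in the Ccnd1 difference was not tested.

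With RPE cells divided more finely by Serpina3n, Ccnd1 was lower in each higher bin up to 3000 CPM. In Control it was at 290 CPM in cells under 100 CPM of Serpina3n, 213 CPM from 100 to 300, 159 CPM from 300 to 1000, 80.1 CPM from 1000 to 3000 and 84.5 CPM above; the last bins hold 9 and 6 cells. In Dox the same bins had 303, 259, 223, 209 and 218 CPM, from 1107, 212, 103, 64 and 144 cells. Cdkn1a took another course, with 43.5, 137, 354, 319 and 317 CPM in Dox and 44.9, 79.7, 80.0, 34.8 and 72.4 CPM in Control. In Dox the level of Cdkn1a was thus as high in cells from 300 to 1000 CPM of Serpina3n, below the split, as above it; these cells had a median of 5999 UMIs. Cdkn1c in Dox was at 38.7, 107, 64.9, 23.5 and 26.7 CPM, with the highest value in the 100 to 300 bin. Fibroblast markers in the same Dox bins summed to 857, 2886, 1068, 217 and 421 CPM, highest in the same bin, and their part in the bin values was not tested. Lmnb1 in Dox was at 5.81, 9.15, 5.04, 3.56 and 1.92 CPM, from 8 UMIs in the last bin. Hmgb1 in Dox was at 395, 431, 344, 303 and 308 CPM and Trp53 at 16.5, 26.6, 21.6, 29.2 and 23.1 CPM. Rpe65 also differed over the bins, at 5170, 3419, 2621, 2292 and 2981 CPM in Control. In Dox it was at 5775, 4227, 3359, 2563 and 1749 CPM. Median depths in the Dox bins were 19327, 8610, 5999, 22161 and 28992 UMIs. The Dox bin from 100 to 300 rests on 393 Serpina3n UMIs in 212 cells. The part of depth and of RPE RNA in the bin values of Ccnd1 and the other genes was not tested.

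**Figure D3:**
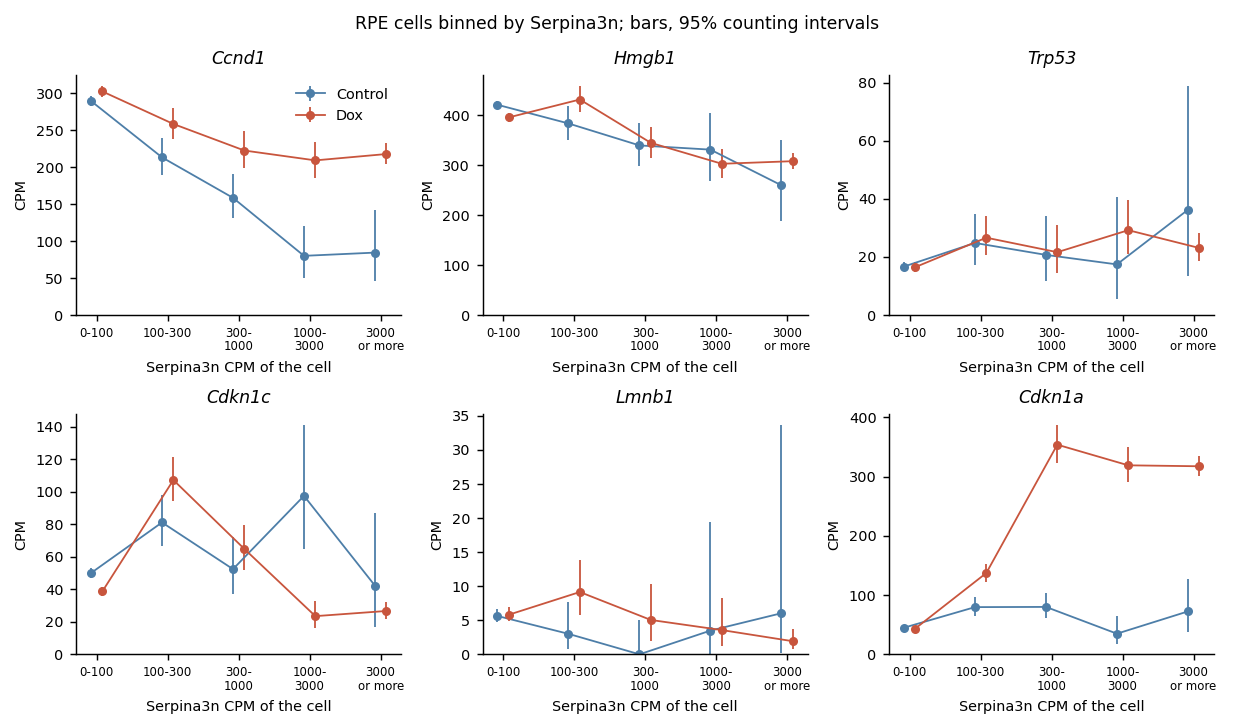
CPM (y axes from 0) of Ccnd1, Hmgb1, Trp53, Cdkn1c, Lmnb1 and Cdkn1a in RPE cells binned by their own Serpina3n CPM (x axis), for Control (blue) and Dox (red), with exact Poisson 95% counting intervals. Ccnd1 goes from 290 to 84.5 CPM in Control and from 303 to 218 CPM in Dox, and Cdkn1a reaches 354 CPM in Dox in the 300 to 1000 bin; the Control bins from 1000 CPM up hold 9 and 6 cells.

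Of 7 D and E cyclin, kinase and Cdkn2d genes with 50 UMIs, 0 were past 1.5-fold between Dox and Control RPE, with 6.58% of all genes past it (median log2 -0.08). Within Dox 2 of 6 were lower in Serpina3n-high cells, with 20.3% of all genes lower (median -0.04 beside -0.18). Cdk6 was at 1.80 against 4.95 CPM from 10 and 127 UMIs (log2 -1.46, -2.56 to -0.54) and Ccnd3 was at 95.4 against 158 CPM (log2 -0.73, -0.86 to -0.60). Of the 18 proliferation genes 9 had 50 UMIs and 0 were past 1.5-fold between Dox and Control RPE, beside the same 6.58% of all genes (median -0.04). In Serpina3n-high Dox cells 1 of 9 was lower, with 20.3% of all genes lower. This was the replication helicase gene Mcm6, at 2.34 against 5.38 CPM. Of 15 Polycomb and other regulators of Cdkn2a, 1 was lower in Dox RPE, where 4.92% of all genes were lower. This was Ets1, at 3.75 against 6.04 CPM (log2 -0.69, -1.05 to -0.33). In Serpina3n-high Dox cells 4 of 15 were lower, Cbx7, Ets2, Id3 and Kdm6b, a share near the 20.3% of all genes, with a list median of -0.42 beside -0.18; Ets2, an ETS factor that can activate the p16Ink4a start, was at 7.01 against 11.5 CPM (log2 -0.72, -1.24 to -0.23).

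Between the Serpina3n-high cells of Dox and Control, 15 of the 41 pathway genes with 50 UMIs were past 1.5-fold. Of all genes 27.4% were past it, 16.5% higher and 10.9% lower. The Dox side held 5566224 UMIs and the Control side 452790, so genes reached 50 UMIs almost only through Dox. The part of this in the count was not tested. Of the 15 genes, 7 had an interval that leaves out 0, and the share of all genes with such an interval is not given. Ccng1 was at 202 against 37.5 CPM (log2 2.43, 1.74 to 3.21) and E2f6 at 88.6 against 30.9 CPM (log2 1.52, 0.76 to 2.40). Mdm2 gave 234 against 9 UMIs (interval of the log2 ratio 0.13 to 2.23). Lower in Dox were Id3, an inhibitor of DNA binding, at 464 against 1411 CPM (log2 -1.60, -1.73 to -1.48), E2f4 (log2 -0.99), Lmna (log2 -0.69) and Cdk4 (log2 -0.60). The Control side of these ratios rests on 15 cells. Their median doublet score was 0.310 and that of the Dox side 0.136, but scores were computed within each library and are not on 1 scale.

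Set against all other cells of the same library, RPE cells were low in most of these regulators. In Control 9 of 10 members were past 1.5-fold, 8 lower and Ccnd1 higher, where 63.6% of all genes were past it in either direction, 44.5% lower and 19.1% higher. In Dox 7 of 9 were past it, 6 lower and Ccnd1 higher, with 63.5% of all genes, 42.8% lower and 20.7% higher. The members' median log2 ratio was -1.25 in Control and -0.83 in Dox, beside -0.42 and -0.35 for all genes. Most proliferation genes showed the same direction, 16 of 18 lower and 1 higher in Control, with a median of -2.38. Mki67, the Ki-67 gene, was at 0.266 CPM in RPE and 4.21 CPM in other cells. The gene that was higher was Cdk1, at 16.9 CPM in RPE and 2.86 CPM in other cells (log2 2.56, 2.34 to 2.79). RPE cells held a median of 16014 UMIs in Control against 4291 UMIs in other cells. A low CPM is not a low number of molecules per cell. A Trp53 UMI was found in 23.9% of Control RPE and 24.2% of Control Myoc-led fibroblast-like cells, but in 8.36% and 25.3% at 5000 UMIs. The shares at 5000 UMIs leave out cells below that depth, 186 of 1526 RPE and 6069 of 11168 Myoc-led fibroblast-like cells.

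**Figure D4:**
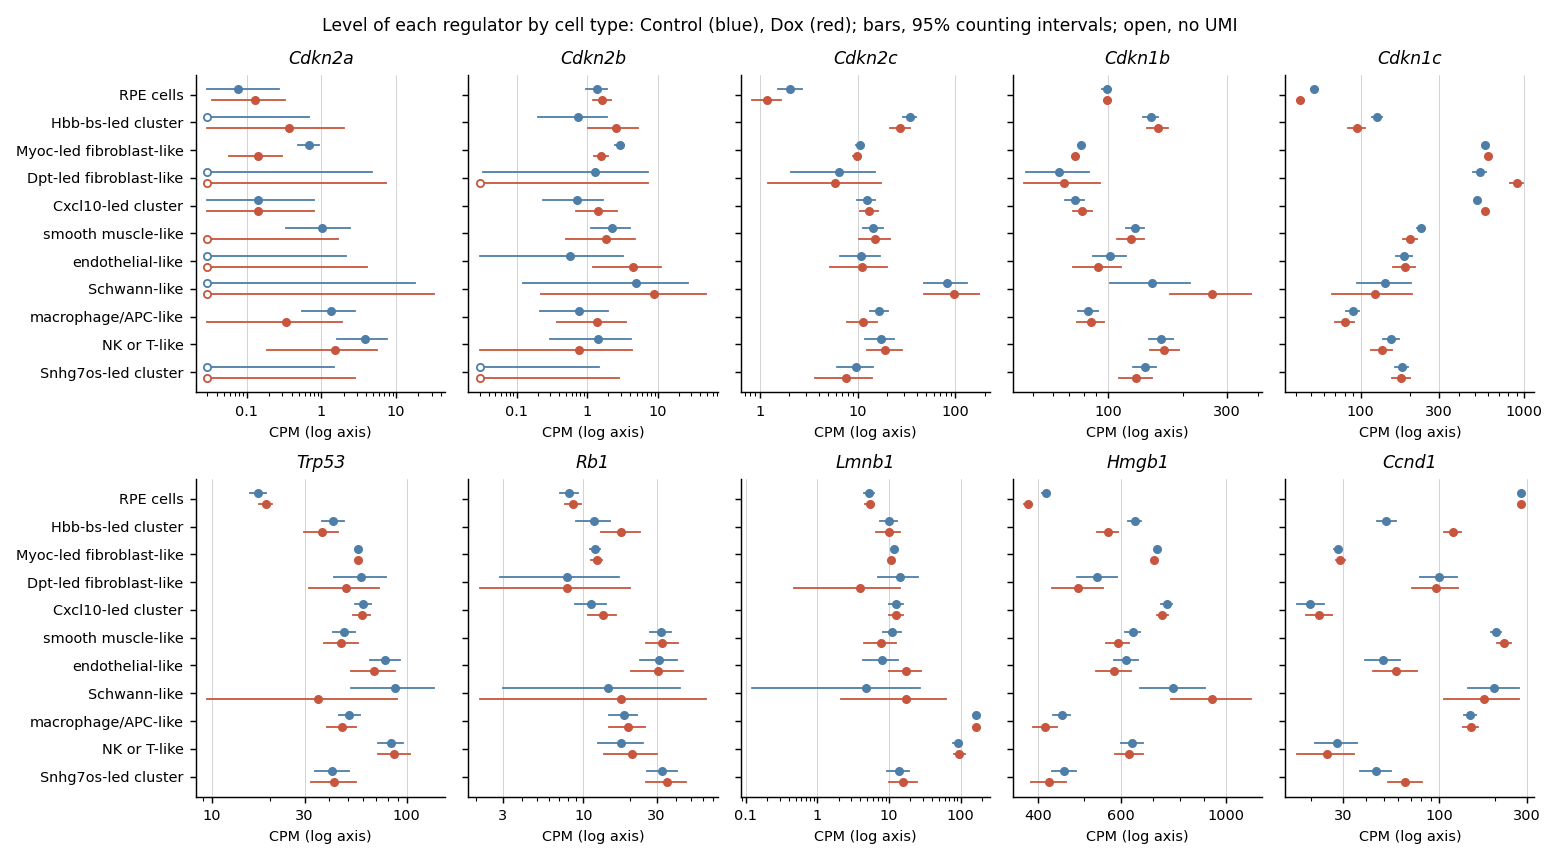
CPM (log x axes) of the 10 regulators in RPE cells and 10 other cell groups (rows) of Control (blue) and Dox (red), with exact Poisson 95% counting intervals; open points at the left edge had no UMI and bars are cut at that edge. RPE cells have the highest Ccnd1 (279 and 280 CPM) and the lowest Cdkn2c, Cdkn1c and Trp53, while Lmnb1 peaks in macrophage or antigen-presenting-like cells (163 CPM) and Cdkn1c in fibroblast-like cells.

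Outside the RPE few members were past 1.5-fold between the libraries, and the counts of 0 are near the shares of all genes given here. In the Cxcl10-led, Snhg7os-led, macrophage or antigen-presenting-like, smooth muscle-like, NK or T-like and endothelial-like groups 0 members were past 1.5-fold, of 6 to 8 with 50 UMIs. Past it there were 4.18% of all genes in the Cxcl10-led, 13.5% in the Snhg7os-led, 8.60% in the macrophage or antigen-presenting-like, 7.31% in the smooth muscle-like, 9.68% in the NK or T-like and 9.61% in the endothelial-like group. In Dpt-led fibroblast-like cells, 114 in Control and 71 in Dox, Cdkn1c was 1 of 5 (13.8% of all genes), at 534 CPM (483 to 588) in Control and 899 CPM (819 to 986) in Dox, log2 0.75 (0.56 to 0.95). In Schwann-like cells, 60 in Control and 32 in Dox, Cdkn1b was 1 of 3 (18.5% of all genes), at 151 CPM from 31 UMIs and 262 CPM from 30 UMIs (log2 0.80, 0.03 to 1.57).

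The genes most like each member over 21 cell groups by library were taken by Pearson correlation of log2(CPM + 1), as a description over groups that share 2 libraries. Ccnd1 was most like Ckb (0.87), brain-type creatine kinase, then Dbndd2 (0.81) and Rufy1 (0.79). Lmnb1 was most like Fermt3 (0.98), the kindlin of blood cells, with Cyth4 and Glipr1 at 0.96. Cdkn1c was most like Tmem100 (0.97), Serping1 (0.96), the C1 inhibitor, and Pdlim2 (0.96). Among the genes most like Trp53 were Tcp11l2 (0.94) and Ube2d1 (0.93), and Rb1 was most like Zbtb11 (0.93), Pcsk7 (0.90) and Sf3b1 (0.90). For Hmgb1 these were Ssb (0.92), Hsd17b10 (0.91) and Rdm1 (0.89), and for Cdkn2c Frmd8 (0.87), Klhdc3 (0.82) and Rab10 (0.82). Among those most like Cdkn1b were Chordc1 (0.89) and Trappc12 (0.89). Cdkn2a and Cdkn2b were under 20 CPM in every group and were not ranked.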

How the data were processed

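Each library was 1 10x 5′ single-cell preparation of pooled RPE/choroid/sclera. The authors used Cell Ranger, version 4.0.0 per the file header, for alignment to mm10, and deposited raw UMI counts of each gene in each cell. The Control library held 115611226 UMIs in the cells kept and the Dox library 99273166. The 10 members, the 7 pathway lists (79 genes) and the marker lists were chosen with earlier results of these data known.

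A cell was kept if it had more than 500 UMIs, between 200 and 6000 genes, a ratio of log10 gene number to log10 UMI number beyond 0.8, and less than a 0.2 share of mitochondrial UMIs. The libraries were normalized with SCTransform (sctransform 0.4.2, Seurat 5.3.0, R 4.3.3), integrated on 2974 of 3000 features, with members and list genes removed, and clustered with 40 components at a resolution of 0.1 into 11 clusters. A cluster took a cell type name with at least 3 markers at 10 CPM and 1 among its 10 leading genes, unless a marker of another type led it, and otherwise the name of its leading gene. This scoring was chosen with the clusters in view. Scrublet (scanpy 1.11.5) called 1941 Control cells (9.62%) and 0 Dox cells, so its calls were not used. As an alternative, the cells with the highest scores were left out, 3258 in Control and 1904 in Dox.

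UMIs were summed per group (Python 3.11.15, scipy 1.17.1). For thinning, cells with at least 5000 UMIs were taken down to 5000 at random, and the others were left out. Levels have exact Poisson, shares Clopper-Pearson and ratios exact conditional binomial 95% intervals. Those of levels and ratios were run on counts simulated with Poisson error alone. This cannot show how they hold where the UMIs of a gene lie in few cells. A gene was called past 1.5-fold with at least 50 UMIs over both groups. Named are all members and Cdkn1a, Rpe65 and Serpina3n, and of the lists the 5 largest differences at most per list and comparison past 1.5-fold whose interval leaves out 0. Lmnb2 and Cdkn2d were named after their values were seen. Genes alike in pattern are the 3 with the highest correlation among genes with 20 CPM in any group of at least 50 cells. Some of these genes are not reported here. The bins of Serpina3n were chosen after seeing the data. Gene positions are from GENCODE vM21.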

Additional observations from a re-analysis of the deposited data

Results flagged for a closer look

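Cdkn1c had opposite directions in different cell groups under the same comparison. Its log2 ratio of Dox over Control was -1.58 in Serpina3n-high RPE cells (15 Control and 208 Dox cells) and 0.75 in Dpt-led fibroblast-like cells (114 and 71 cells), and each counting interval leaves out 0. The former ranged from -2.28 to -0.66 over 13 alternatives and moved beyond its counting interval in 7. Per 1000 fibroblast-marker UMIs, Serpina3n-high cells had 46.3 Cdkn1c UMIs in Control and 70.0 in Dox. The markers themselves summed to 1670 CPM in Control and 370 CPM in Dox, so this quotient is no reversal of the log2 ratio. With 1 library a condition, the difference between the log2 ratios of the RPE and the fibroblast-like cells was not tested.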

How the results depend on the processing

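The count of members past 1.5-fold between Dox and Control in all RPE cells, 1 as reported, was 0 with RPE cells taken at 3 Rpe65 UMIs, in the RPE cells with the lower fibroblast-marker CPM, with cells thinned to 5000 UMIs, at 200 UMIs or more and at 2-fold, and 2 with no limit on UMIs. In Serpina3n-low cells it was 1 in place of 0 with no cell filter, without the highest doublet scores, at 20 Rpe65 UMIs, in the RPE-like cluster alone, with the mean of the cells' own CPM and with no limit on UMIs. In Serpina3n-high cells, 2 as reported, it was 4 with the lower fibroblast-marker CPM, 1 thinned, 1 at 200 UMIs and 5 with no limit, and the pathway genes past it there, 15 as reported, were 4, 7 and 33 when thinned, at 200 UMIs and with no limit, and 7 at 2-fold. Between Serpina3n-high and Serpina3n-low cells, 3 as reported in each library, it was 6 in both at 3 Rpe65 UMIs and 5 in both with no limit. In Dox it was also 1 at 200 UMIs and 1 at 2-fold, and in Control 5 with the lower fibroblast-marker CPM and 5 centred on the median of all genes. The share of all genes past the fold under each alternative is not given here, so these counts cannot be set against a background. In Control, 2 ratios of Serpina3n-high over Serpina3n-low cells that were past 1.5-fold turned: Cdkn2c to -0.55 at 3 Rpe65 UMIs and Rb1 to 0.22 with a higher Serpina3n split. Of those not past it, Cdkn1c reached -1.12, Trp53 -0.41, Lmnb1 0.60 and Cdkn1b 0.52, each of the other sign than reported. The causes were not tested. The set at 3 Rpe65 UMIs held 3885 Control and 4898 Dox cells. The RPE-like cluster held 1423 and 1490 cells, so most of that set lay outside it. Of the other ratios under the alternatives 60 moved beyond their counting interval and 505 did not. In Serpina3n-high over Serpina3n-low Dox cells, Lmnb1 ranged from -2.14 to -0.51, Cdkn1c from -2.83 to -0.37 and Hmgb1 from -0.65 to -0.19. No paired analysis was possible because each condition has 1 library. Depth limits Cdkn2a, Cdkn2b and Cdkn2c in RPE cells and every member in the 15 Serpina3n-high Control cells.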
